A study of Mus musculus with 6 samples.

Results

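The near-completely methylated positions of this study are the places in the RNA where the deposited m6A level was 80% or more in each of the 3 MTH-WT samples. Of 567667 listed rows, 7895 met this rule, or 1.39%, and they made up 9.69% of the 81444 rows that averaged at least 10% m6A over all 6 samples. The members were chosen by the MTH-WT values alone. The MTH-D values played no part, so every MTH-WT level of a member, and every difference between the groups at the members, is given as a description. Selection on the MTH-WT samples keeps chance highs of MTH-WT and discards its chance lows, which by itself lowers MTH-D relative to MTH-WT.

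The samples were 6 nanopore direct RNA libraries of primary cultures of mouse HCICs, the HCC-initiating cells that the study isolated from livers of male mice 3 months after a single injection of the carcinogen diethylnitrosamine (DEN). The 3 MTH-WT samples carry wild-type Mthfd1l and the 3 MTH-D samples are labelled as Mthfd1l knockouts, and the labels number each group 1 to 3 and put all 6 in batch 1. Per the study's methods, MTH-D cells were single-cell colonies selected with puromycin after lentiviral delivery of Cas9 and guides against Mthfd1l, and MTH-WT cells were colonies that received the empty LentiCRISPRv2 vector with Cas9, so that both groups carry Cas9. The lines came from a control (CTL) mouse and from double knock-in (DKI) mice, in which mutations in Mdm2 and Mdmx weaken 2 routes of p53 activation. Which number stands for which line is not in the labels, nor is the number of colonies behind a sample. The source mice were pups when injected with DEN, per the study's methods, and the labels give no age. The study describes 1 of its MTH-D lines, HCIC-2, as carrying only a small deletion. Its text names HCIC-1 and HCIC-3 for the m6A comparison, while the labels give 3 samples a group, all of which are used here. The DEN exposure and the culture as HCICs are thus shared by all 6 samples. So is the C57BL/6 background that the study states for its mice. Sequencing used 1000 ng of total RNA per sample, with a flow cell for each and runs of up to 72 h.

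N6-methyladenosine (m6A) is a methyl mark placed on adenosines of messenger RNA, mostly by the METTL3-METTL14 writer complex in the nucleus, within the short sequence known as DRACH. It is removed by the erasers FTO and ALKBH5 and bound by YTH-domain and IGF2BP reader proteins, which affect how long an mRNA lasts and how well it is translated. The mark is known to gather in long internal exons and around stop codons and to be kept away from exon junctions, and most sites carry it on only a part of the mRNA molecules. MTHFD1L is a mitochondrial enzyme of one-carbon metabolism that yields formate, which feeds the methionine cycle and its product S-adenosylmethionine, the methyl donor of the writer. The question for the positions described here is how a site that is modified on nearly every molecule in MTH-WT cells stood in MTH-D cells.

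The levels come without coverage. Their depth is therefore unknown, and values have no counting interval. The mean level over all listed rows lay between 6.34% and 7.68% in the 6 samples, and the samples numbered 2 were the highest of their group, with 7.45% in MTH-WT and 7.68% in MTH-D. Positions are named in GRCm39, the build in the labels. The reference at hand was GRCm38, so positions were not assigned to genes, exons or strands, and neither sequences around them nor values of named genes are given. The tissue label could not be checked against marker genes, since an m6A level is not an expression level. Of the members, 5613, or 71.1%, had no value of exactly 0 or 100% in any of the 6 samples.

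High levels were not the tail of a falling curve. The number of listed rows fell steeply with the lowest of the 3 MTH-WT values at first, from 473769 rows under 5% to 2577 rows from 45 to under 50%. Above that it changed little, with 2049 rows from 70 to under 75%, 2064 from 75 to under 80%, 2161 from 80 to under 85%, 2099 from 85 to under 90% and 2215 from 90 to under 95%. The last 5 points held 1420 rows. The MTH-D samples, ranked by their own lowest value, gave 1961, 1946, 2063 and 1380 rows in the 4 bands above 80%, so that a flat upper range was seen in each group. In MTH-WT, 3635 members were at 90% or more in every sample, 1420 at 95% or more and 148 at exactly 100%. Over all 6 samples, 2827 positions stood at 90% or more, 952 at 95% or more and 50 at exactly 100%.

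**Figure D1:**
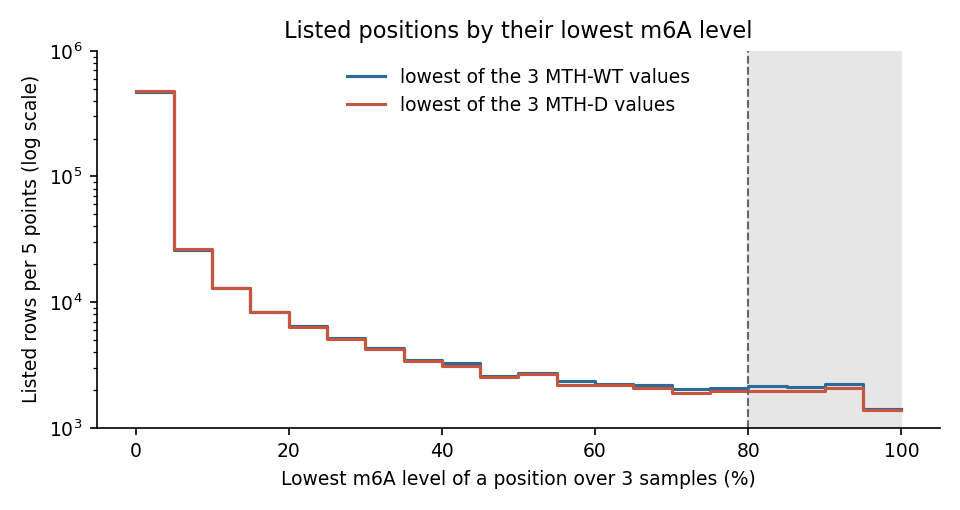
Number of listed rows (log scale) in bands of 5 points by the lowest m6A level (%) over the 3 MTH-WT samples (blue) or the 3 MTH-D samples (red), with the range of the members shaded. Both curves fall to about the level of the shaded range by 50% and stay nearly flat up to 95%, with 2215 MTH-WT and 2063 MTH-D rows from 90 to under 95%.

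The threshold cut through this flat range. The lowest MTH-WT value was from 80 to under 81% for 509 members, of which 168 were at exactly 80%, and from 79 to under 80% for 288 rows that were left out. Just inside, the position at chr1:30844196 had 80%, 84.4% and 80.8% in MTH-WT samples 1, 2 and 3, and 71.0%, 75.9% and 77.4% in MTH-D samples 1, 2 and 3. Just outside, chr13:54809344 had 79.96%, 91.4% and 83.0% in MTH-WT and 81.4%, 86.0% and 79.8% in MTH-D.

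Members with no value of exactly 0 or 100% were ranked by their floor, the lowest value over all 6 samples. This choice uses the MTH-D values too, and a floor near 100% leaves the samples little room to differ. The highest floor was at chr5:110266397, with 99.65%, 99.69% and 99.65% in MTH-WT and 99.81%, 99.58% and 99.77% in MTH-D. Next came chr10:43459047, with 99.63%, 99.77% and 99.60% in MTH-WT and 99.46%, 99.55% and 99.64% in MTH-D, and it had another member 2 bases away. The third, chr5:29999842, had 99.76%, 99.86% and 99.54% in MTH-WT and 99.76%, 99.88% and 99.46% in MTH-D. In these positions the unmodified remainder was under 1% in every sample. The floor of the 10 highest ranged from 98.85% to 99.58%, on chromosomes 2, 3, 5, 10, 11, 12, 15 and 17, and their differences between the groups ranged from -0.323 to 0.163 points. Some of them stood apart from other members, since chr11:94104698 had its nearest member 126246 bases away and chr15:36595955 had its nearest methylated position 1292 bases away.

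Members were found on 20 chromosomes, in numbers from 160 on chromosome X and 212 on chromosome 14 to 706 on chromosome 2. Their share of the listed rows ranged from 0.924% on chromosome X to 1.77% on chromosome 7, with a median of 1.36%, and chromosome 13 was next to the highest with 1.71%. The 26 rows of chromosome Y held no member. In samples that the rule did not use, the ends of this order were the same. The share of rows at 80% or more was lowest on chromosome X in all 3 MTH-D samples, at 0.999%, 1.39% and 0.964%, and second lowest on chromosome 14, at 1.33%, 1.85% and 1.27%. Chromosome 7 and chromosome 13 held the 2 highest shares in each MTH-D sample, with 1.96%, 2.77% and 1.96% on chromosome 7 and 1.997%, 2.79% and 1.88% on chromosome 13. The 2 differed by less than 0.1 points in each of these samples, so their order between them was not resolved. The range narrowed when members were counted among methylated rows. Of the rows averaging at least 10% m6A, members made up 8.48% on chromosome 14, 9.55% on chromosome X and 10.9% on chromosome 13, with a median of 9.56% over the chromosomes.

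**Figure D2:**
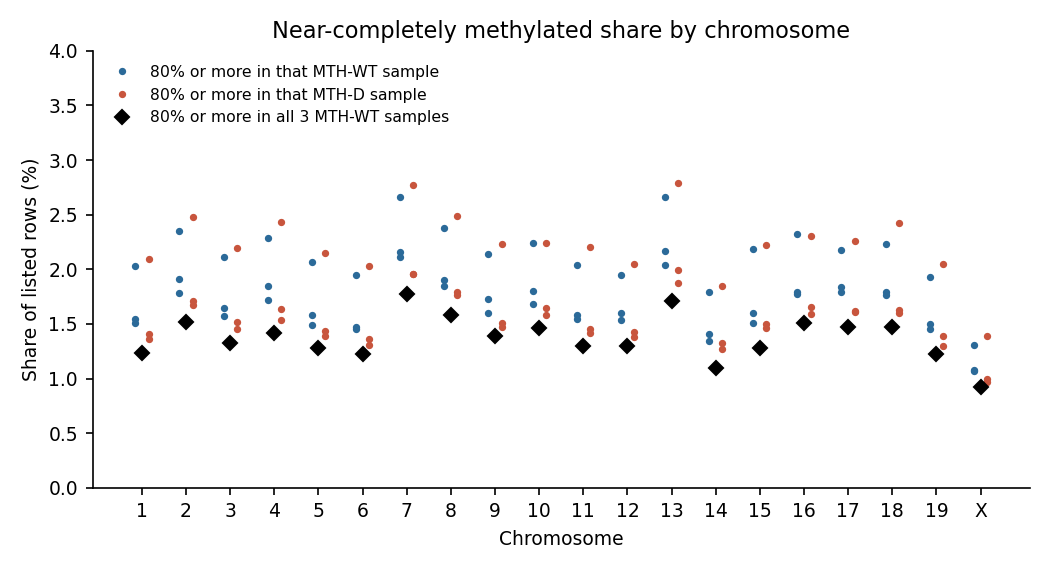
Share of the listed rows (%) on each chromosome at 80% or more in all 3 MTH-WT samples (black diamonds), and at 80% or more in each MTH-WT sample (blue) and each MTH-D sample (red). Chromosome X is lowest and chromosomes 7 and 13 are highest in all 6 samples, and the samples numbered 2 are the upper point of each colour.

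Members lay close to each other, although far less close than listed positions in general. The median distance from a member to the nearest other member was 245 bases, with quartiles of 89 and 3808 bases, against 21 bases between neighbouring listed positions. Another member stood within 100 bases of 28.0% of members and within 1000 bases of 70.5%. At the other end, 11.1% had no other member within 100000 bases. The 12363 rows that averaged 40 to 60% in MTH-WT, used here as the comparison, were spaced in like manner, with a median of 320 bases to the nearest of their own kind and 24.4% within 100 bases, although they were more numerous. Positions of the comparison were farther from a member, with a median of 829 bases and 17.7% within 100 bases, and over all listed rows 4.88% had a member within 100 bases. Few members were immediate neighbours. There were 8 pairs of members 1 base apart, 6 pairs 2 bases apart and 0 pairs 3 bases apart, among 7875 gaps between consecutive members, and the table has no strand column to part the strands.

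When members no more than 1000 bases apart were joined, they formed 4209 groups. Of these, 2331 held a single member, 940 held 2, 717 held 3 or 4, 214 held 5 to 9 and 7 held 10 or 11. The 1288 members in groups of 5 or more had mean levels of 92.5%, 94.0% and 92.4% in the 3 MTH-WT samples and 91.0%, 94.3% and 90.7% in the 3 MTH-D samples. The 2331 single members were lower in each of the 6 samples, at 90.4%, 93.2% and 90.3% in MTH-WT and 88.9%, 93.1% and 88.6% in MTH-D. Every MTH-D sample was at 80% or more for 86.8% of the grouped and 81.2% of the single members. Values of exactly 0 or 100% were more frequent among the grouped ones, of which 66.3% had none, against 74.3% of the single ones.

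The densest stretches held 7 members in 1000 bases, and there were 5 such bins among the 5109 bins with a member. On chromosome 10 the 7 members spanned chr10:128647055-128647917, a bin in which 16 of 26 listed rows averaged at least 10%. Their mean levels were 92.4%, 96.5% and 90.1% in MTH-WT and 87.8%, 89.8% and 87.3% in MTH-D, so that the 3 MTH-D means lay below the 3 MTH-WT means. All 7 members had a lower MTH-D than MTH-WT mean, with differences from -12.9 to -0.867 points, where 60.4% of all members had one. The choice on MTH-WT lowers MTH-D here too, and the share of other bins separated in this way was not counted. Nothing is therefore read from the separation. At the one with the largest difference, chr10:128647917, the values were 91.7%, 100% and 80% in MTH-WT and 77.8%, 82.6% and 72.7% in MTH-D, and the groups overlapped. A second bin where all 7 were lower in MTH-D spanned chr8:8670225-8670707, with means of 91.1%, 93.6% and 90.7% in MTH-WT and 88.2%, 92.2% and 88.6% in MTH-D, which overlapped. Within that bin, chr8:8670476 stood at 98.9%, 99.2% and 99.7% in MTH-WT and 98.8%, 98.2% and 99.4% in MTH-D, while chr8:8670560, 84 bases on, had 80.9%, 90.6% and 84.6% in MTH-WT and 73.4%, 90% and 75.9% in MTH-D. The first of these members varied little over the 6 samples and the second widely. The other bins were mixed, with 3 of 7 lower in MTH-D at chr17:56566259-56566638, 5 of 7 at chr5:86976108-86976913 and 3 of 7 at chr5:138100176-138100793. The last of these was also the most complete, with means of 94.4%, 98.8% and 96.1% in MTH-WT and 95.4%, 96.5% and 93.5% in MTH-D.

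Other methylated positions were close to most members. A second position averaging at least 10% m6A lay within 100 bases of 85.03% of members, within 50 bases of 62.4% and within 500 bases of 98.2%. For the positions averaging 40 to 60% in MTH-WT the share within 100 bases was 77.4%, and over all listed rows it was 30.7%. The nearest listed position was 19 bases from a member at the median, against 18 for the comparison and 21 for all rows. Over wider distances members had more listed positions around them than rows averaging under 2% had, with 6.84 against 4.35 per row at 251 to 500 bases, while the comparison had 6.45. When only rows that are not members could be the neighbour, 79.4% of members still had one within 100 bases, against 73.96% of the comparison.

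The level of these neighbours fell with distance. Rows that were not members and lay 11 to 25 bases from a member averaged 18.6% ± 1.38 (SD, n = 3 samples) in MTH-WT, against 18.2% ± 2.42 (SD, n = 3) in MTH-D. From 51 to 100 bases they averaged 18.8% ± 1.29 in MTH-WT and 18.3% ± 2.29 in MTH-D. From 251 to 500 bases the level was 15.1% ± 0.881 and 14.8% ± 1.82, from 501 to 1000 bases 11.5% ± 0.571 and 11.3% ± 1.34, and from 5001 to 20000 bases 6.07% ± 0.465 and 5.95% ± 0.768. The level near a member was thus flat over the first 100 bases and approached the mean of all rows beyond 1000 bases. At each of these distances the MTH-D mean was below the MTH-WT mean by less than the SD of either group. Around the positions averaging 40 to 60% the level was 15.6% ± 1.12 in MTH-WT at 11 to 25 bases, below the 18.6% around members, and 6.89% against 6.85% at 1001 to 5000 bases. Within 5 bases the order was the other way, with 21.01% ± 1.64 around these positions and 19.3% ± 1.27 around members. Around positions averaging under 2% the level was lowest close by, at 2.85% from 1 to 5 bases, and was 3.70% from 11 to 25 bases and 5.47% from 1001 to 5000 bases. A row near several centres was counted once for each.

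**Figure D3:**
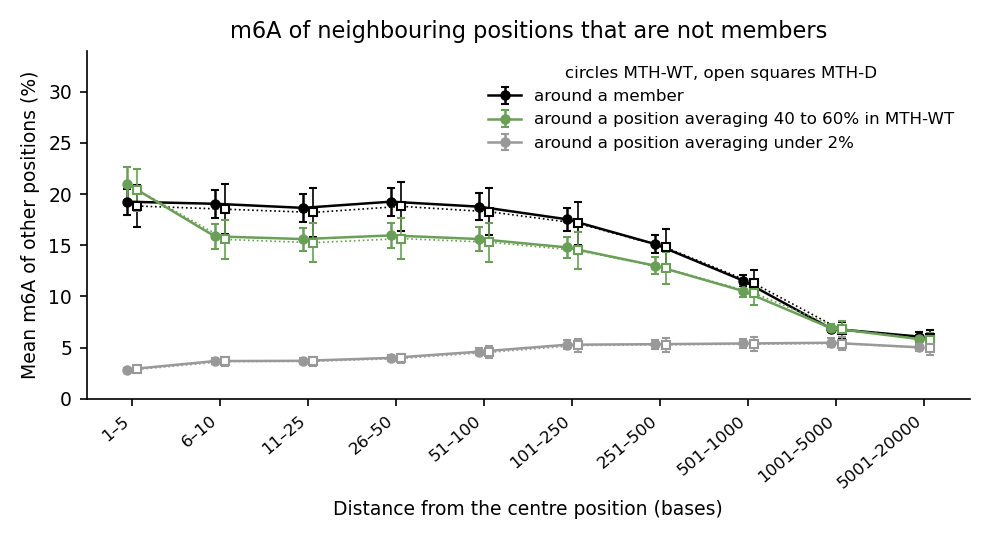
Mean m6A (%) of listed positions that are not members, by distance in bases from a member (black), from a position averaging 40 to 60% in MTH-WT (green) or from one averaging under 2% (grey), with circles for MTH-WT, open squares for MTH-D and bars for the SD over 3 samples. Levels around members stay between 18.2% and 19.3% up to 100 bases, lie above the green curve from 6 to 1000 bases and come close to it beyond 1000 bases.

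Members lay mostly inside long uninterrupted runs of listed positions. When listed positions no more than 200 bases apart were joined into blocks, which follow stretches of covered RNA without being annotated exons, the median span of the block holding a member was 1199 bases, against 1043 for the comparison and 629 for all listed rows. Blocks of 1000 bases or more held 59.7% of members, 52.1% of the comparison and 37.8% of all rows. Blocks spanning under 200 bases held 3.61% of members and 30.6% of all rows. Of the listed rows, members made up 0.164% in the blocks under 200 bases, 1.12% from 200 to under 500, 2.02% from 500 to under 1000, 2.28% from 1000 to under 2000 and 2.08% in longer ones. The rows at 80% or more in each MTH-D sample, values that the rule did not use, gave 0.154%, 1.03%, 1.86%, 2.14% and 1.94% in the same bands. Part of this goes with methylation as a whole, as 2.91% of rows in the shortest and 20.3% in the blocks from 1000 to under 2000 bases averaged at least 10%. Among rows averaging at least 10%, the share of members still rose between these bands, from 5.62% to 11.2%. In blocks of 1000 bases or more, 8.31% of members, 11.7% of the comparison and 15.4% of all rows lay within 100 bases of an end of the block.

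In single samples the members stood between 89.8% and 93.7% on average. The mean levels of the 7895 positions were 91.3%, 93.6% and 91.4% in MTH-WT samples 1, 2 and 3 and 89.98%, 93.7% and 89.8% in MTH-D samples 1, 2 and 3. The samples numbered 2 were thus the highest of each group, and their 2 values lay closer to each other than to any other sample. They also had the most values of exactly 100%, at 15.1% of members in MTH-WT and 14.3% in MTH-D, where the other samples had 4.88% to 8.49%. Whether depth or the rate of calling m6A differs in these 2 libraries was not tested. The interquartile range of the members ran from 87.0% to 95.7% in MTH-WT sample 1 and from 85.6% to 95.4% in MTH-D sample 1. Of the levels summed over all listed rows, members made up from 17.5% to 19.3% in the MTH-WT samples and from 17.0% to 19.7% in the MTH-D samples. A high share follows from choosing high levels. Without coverage or transcript abundance it is not an amount of m6A.

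**Figure D4:**
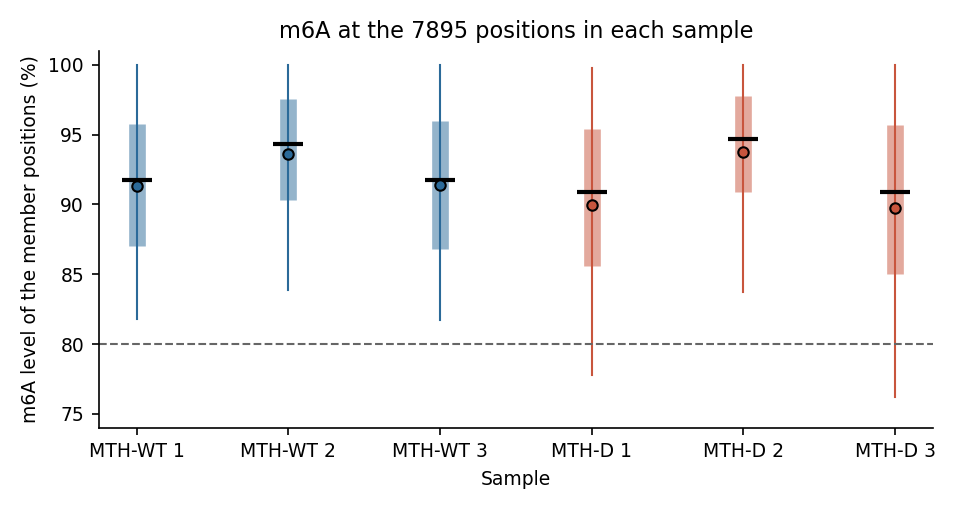
m6A level (%) of the 7895 members in each of the 6 samples: median (black dash), mean (circle), interquartile range (thick bar) and 5th to 95th percentile (thin line), with the threshold of 80% dashed. MTH-D 2 resembles MTH-WT 2, while MTH-D 1 and MTH-D 3 reach below 80% at their 5th percentile, 77.8% and 76.2%.

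Most members stayed at 80% or more in MTH-D. Every MTH-D sample was at 80% or more for 6665 of the 7895 members, or 84.4%, where 1.29% of all listed rows were. A single MTH-D sample was under 80% for 892 members, 2 samples for 296 and all 3 for 42. By sample, 657 members were under 80% in MTH-D sample 1, or 8.32%, 132 in sample 2, or 1.67%, and 821 in sample 3, or 10.4%. No member had an MTH-D mean under 50%, 2 were under 60% and 9 under 70%. How far a member stayed above 80% followed its MTH-WT floor. All 3 MTH-D samples were at 80% or more for 57.1% of the 2161 members with a floor from 80 to under 85%, for 88.5% of those from 85 to under 90%, for 97.5% of those from 90 to under 95% and for 99.6% of the 1420 at 95% or more.

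The MTH-D samples, free of the choice, also differed among themselves. Over the members, MTH-D samples 1 and 3 differed by 3.99 points on average without regard to sign, and were within 5 points of each other at 71.8% of members. Sample 2 differed from sample 1 by 5.06 points and from sample 3 by 5.34 points, with 60.1% and 57.7% of members within 5 points. Between the groups, samples of the same number differed by 3.77 points for number 1, 3.36 points for number 2 and 4.01 points for number 3. The median SD over the 3 MTH-D samples was 3.22 points at a member and 8.04 points at a position averaging 40 to 60% in MTH-WT. Levels near the upper limit have less room to vary. The correlation between MTH-D samples across the 7895 members was 0.590 for samples 1 and 2, 0.689 for samples 1 and 3 and 0.595 for samples 2 and 3, values that describe positions sharing libraries within a narrow range of levels.

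Over the members, MTH-WT averaged 92.1% ± 1.31 (SD, n = 3). MTH-D averaged 91.2% ± 2.23 (SD, n = 3), which differs from MTH-WT by -0.939 points, and selection on MTH-WT lowers this difference. It rested on single MTH-D libraries, at -2.23 points without MTH-D sample 2, -0.351 without MTH-D sample 1 and -0.241 without MTH-D sample 3. Leaving out an MTH-WT sample also chose the rows again on the other 2, giving 8753, 8163 and 8934 rows without samples 1, 2 and 3. Over those rows the difference was -1.68, -0.341 and -1.81 points, which mixes the sample left out with the change of rows. Over the members themselves, MTH-D was lower by 1.34 and 1.60 points in the samples numbered 1 and 3, with differences of -1.34 and -1.60. In those numbered 2 it was 0.126 points higher. The MTH-D mean was below the MTH-WT mean at 4766 members, or 60.4%, and the interquartile range of the differences ran from -2.37 to 0.820 points around a median of -0.563. The spread of -6.72 to 3.79 points between the 5th and 95th percentiles reached further down than up, where members have less room to rise than to fall. On the 20 chromosomes with members, the difference in the samples numbered 1 ran from -1.78 to -0.818 points and in those numbered 3 from -2.34 to -0.759, so that both were below 0 on all 20. In the samples numbered 2 it ran from -0.543 to 0.605 and was below 0 on 3.

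To see how much of the difference over members the choice gives by itself, positions were chosen on 2 MTH-WT samples. The MTH-WT sample left out was then compared with the MTH-D sample of its number. Neither of these had any part in the choice. With number 1 left out, 8753 positions were chosen, and MTH-WT sample 1 stood at 89.7% and MTH-D sample 1 at 88.9%. With number 2 left out, over 8163 positions, MTH-WT sample 2 stood at 93.0% and MTH-D sample 2 at 93.4%. With number 3 left out, over 8934 positions, the values were 89.3% and 88.2%. The left-out MTH-WT sample was below its value among the members each time, 91.3%, 93.6% and 91.4%, where it took part in the choice. The differences were -0.813, 0.467 and -1.13 points. The 3 left-out MTH-WT samples averaged 90.7% ± 2.002 (SD, n = 3) and the MTH-D samples 90.2% ± 2.84 (SD, n = 3). The difference of -0.491 points was smaller than either SD, and a two-sided permutation test, exact over all splits of 3 against 3, gave p = 0.6 where the smallest p possible is 0.1. With the replicate block, that is with the numbers taken as pairs, the exact sign-flip permutation test gave p = 0.5, and 3 pairs cannot go below 0.25.

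Choosing on MTH-D instead gave a mean difference above 0 through the samples numbered 2. The 7350 rows at 80% or more in each MTH-D sample averaged 92.3% ± 1.81 (SD, n = 3) in MTH-D, 0.178 points above the MTH-WT samples at 92.1% ± 1.36 (SD, n = 3). In the samples numbered 1, 2 and 3 the differences of MTH-D from MTH-WT were -0.0604, 0.696 and -0.103 points. At a threshold of 70% the mean crossed 0, with MTH-WT above MTH-D by 0.0573 points. The 2 choices shared 6665 rows, 84.4% of the members and 90.7% of the rows chosen on MTH-D, and over these shared rows the difference was -0.233 points. Positions chosen on 2 MTH-D samples, with the third compared, gave differences of -0.681, 0.541 and -0.976 points, a mean of -0.372 (exact permutation test, p = 0.6, smallest possible 0.1). With the third sample left out of the choice, the differences for each number were thus close whichever group chose, as the plot of differences within same-numbered samples shows, and number 2 had the opposite sign to numbers 1 and 3 in each.

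**Figure D5:**
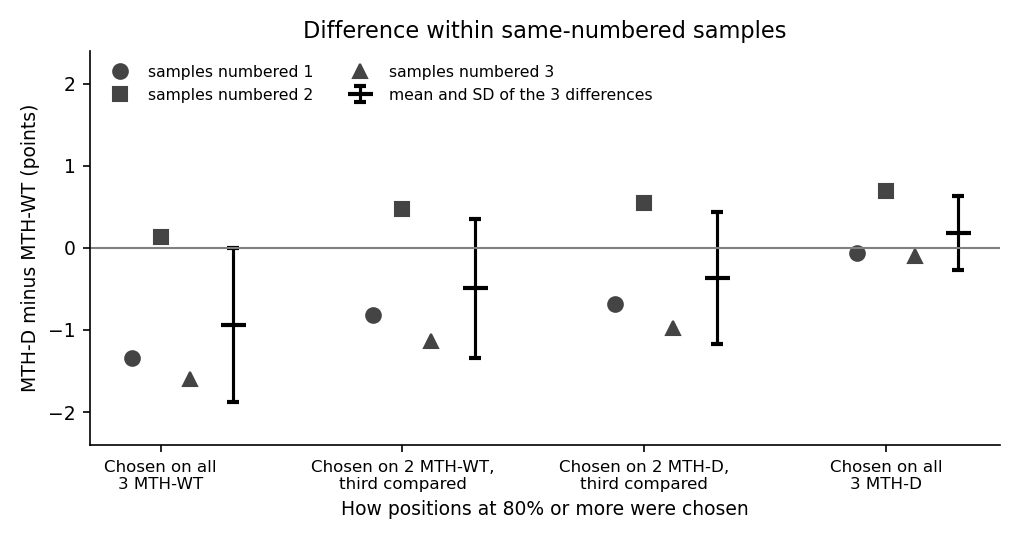
Difference of MTH-D from MTH-WT (percentage points) in the samples numbered 1 (circles), 2 (squares) and 3 (triangles) at positions of 80% or more, by which samples chose them, with the mean and SD of the 3 differences. Choosing on all MTH-WT samples gives a mean of -0.939, leaving the compared samples out gives -0.491 and -0.372, and choosing on all MTH-D samples gives 0.178.

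Large departures at single members were few. The MTH-D mean was lower by 10 points or more at 134 members, or 1.70%, where 0.519% of all listed rows were. Most of all listed rows averaged under 10% and cannot fall so far. The MTH-D mean was higher by as much at 3 members, or 0.0380%, where 0.319% of all listed rows were. Members with an MTH-WT mean above 90% cannot rise so far. Among the positions averaging 40 to 60% in MTH-WT, 6.93% were lower and 2.69% higher by as much. With the choice made on MTH-D, the same counts were 6 lower and 61 higher of 7350. All 3 MTH-D values lay below all 3 MTH-WT values at 360 members, or 4.56%, against 2.88% of all listed rows, and all 3 lay above at 183, or 2.32%, against 2.79%. Among rows chosen on MTH-D these shares were 3.06% and 3.36%. Since the rule used this contrast, nothing is read from these shares. Of the 134 members lower by 10 points or more, the lowest MTH-WT value was under 90% for 79.1%, against 54.0% of all members.

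Over all members, the lowest difference was at chr7:126294829, with 81.3%, 100% and 93.3% in MTH-WT and 69.6%, 57.1% and 55% in MTH-D. This position and others at the extremes held values of exactly 100%. The falls that follow are the 5 largest among 257 members. These had no value of exactly 0 or 100%, and all their MTH-D values lay below all their MTH-WT values. At chr4:134250688 the levels were 80%, 85.7% and 90.9% in MTH-WT and 46.8%, 69.1% and 52.2% in MTH-D, a difference of -29.5 points. At chr6:122293713 they were 82.6%, 81.8% and 80% in MTH-WT and 51.9%, 75% and 50% in MTH-D, a difference of -22.5 points. In both, MTH-D sample 2 stood well above the other 2 MTH-D samples and nearest to MTH-WT. At chr1:171331503 the levels were 89.2%, 87.5% and 93.3% in MTH-WT and 58.5%, 82.9% and 67.2% in MTH-D, with the same order, and a difference of -20.4 points. At chr18:68395768 the MTH-D samples were alike, at 69.4%, 70.3% and 70%, against 87.5%, 91.3% and 88.2% in MTH-WT, a difference of -19.1 points. The fifth, chr11:98796153, had 93.8%, 90% and 87.5% in MTH-WT and 72.7%, 84.6% and 58.8% in MTH-D. The first 2 of these stood apart from other members, with the nearest 15275 and 503634 bases away, while chr18:68395768 had one 180 bases away.

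The 3 members higher by 10 points or more each had values of exactly 100% in MTH-D, as at chr12:51877176, with 100%, 82.4% and 81.8% in MTH-WT and 100% in all 3 MTH-D samples. The rises that follow are the 5 largest among members with no value of exactly 0 or 100%. At chr11:75656160 the levels were 80%, 82.4% and 86.7% in MTH-WT and 95.7%, 91.7% and 90.5% in MTH-D, 9.59 points higher. At chr6:115998781 they were 82.4%, 86.2% and 83.7% in MTH-WT and 92.2%, 92.0% and 94.4% in MTH-D, 8.78 points higher. In both, the groups did not overlap. The other 3 of these 5 rises, on chromosomes 13 and 19, lay between 8.77 and 9.01 points, and each of the 5 had its lowest MTH-WT value between 80% and 82.7%.

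The sign of the difference varied between groups of members. Among the 221 groups of 5 or more members, the mean difference was below 0 in the samples numbered 1 in 159, in those numbered 2 in 91 and in those numbered 3 in 162. It was below 0 in all 3 numbers in 48 groups and above 0 in all 3 in 11. Choosing members on MTH-WT moves these signs below 0, and groups of other rows were not counted. Nothing is therefore read from these counts. The mean over a group ran from -7.89 to 2.97 points, with a median of -0.789. Methylated rows within 100 bases of the 134 members that were lower by 10 points or more, leaving out members themselves, averaged 38.7%, 41.6% and 37.1% in MTH-WT and 35.2%, 42.3% and 33.3% in MTH-D. The same kind of rows around all members averaged 38.0%, 42.0% and 36.9% in MTH-WT and 36.1%, 43.4% and 34.5% in MTH-D. The difference was -3.49, 0.691 and -3.71 points in the samples numbered 1, 2 and 3 around the members that were lower, and -1.92, 1.34 and -2.401 points around all members. It was thus the lower of the 2 in each number, around members chosen for being lower in these samples.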

How the data were processed

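The data are nanopore direct RNA m6A levels of 3 MTH-WT and 3 MTH-D samples. In the table the authors deposited, each value is the fraction (0 to 1) of m6A at a position in a sample. The submitters' processing notes name minimap2 2.26, SAMtools and GRCm39. The modification caller and coverage filter are not given in the sources used here. Fractions were converted to percent in Python 3.11.15 (pandas 2.3.3). Positions were listed from 0, since 93.8% of the 9029 rows in the first 59 Mb of chromosome 4 then fell on DRACH adenosines of GENCODE M21 transcripts and 0.875% when counted from 1, so 1 was added to each. That annotation, on GRCm38, served this check alone. No gene was assigned, so the planned gene lists and motif shares were not analysed here. Members were rows at 80% or more in each MTH-WT sample. The table lists 3 positions in 2 rows each, none a member.

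The held-out difference was compared by a two-sided exact permutation test over 6 values at a threshold of 0.05. Each number has its own set of chosen rows, and an MTH-WT sample left out for its number helps to choose the rows of the others. The p-values thus measure the spread between these samples together with the change of rows, and no spread beyond these samples. The permutation test over 6 values leaves the pairs out, and the sign-flip test takes them in. The measures were tested on simulated data. Numbers were taken as pairs because deviations from the group means at rows averaging at least 10% correlated at 0.164, 0.223 and 0.133 within same-numbered samples. Named positions were, among members with no value of exactly 0 or 1, the 10 with the highest value in their lowest of 6 samples, the 5 largest falls with groups that did not overlap and the 5 largest rises, and also the 5 bins of 1000 bases with most members and rows at the threshold. The 2 extremes named over all members were chosen after their values were seen. The members, lists and tests were chosen with earlier results of these data known. Alternatives covered the threshold, values of exactly 0 or 1, the median, the window, the left-out samples and the block. The alternatives of choosing on 2 MTH-D samples and of neighbours that are not members were chosen after seeing the data.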

Additional observations from a re-analysis of the deposited data

Results flagged for a closer look

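The held-out difference of MTH-D from MTH-WT had opposite signs in the same-numbered samples. It was 0.467 points in the samples numbered 2, against -0.813 points for number 1 and -1.13 points for number 3. Over all listed rows the signs were the same, at -0.337, 0.231 and -0.231 points for numbers 1, 2 and 3. With 1 pair for each number, the difference between the numbers was not tested. The labels do not tie the numbers to cell lines.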

How the results depend on the processing

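The 7895 members became 12008 at a threshold of 70%, 3635 at 90% and 1420 at 95%. The difference over members, -0.939 points, ranged from -2.23 to -0.241 without each sample in turn, with -2.23 without MTH-D sample 2, and was -1.64 in the samples numbered 1 and 3. Wherever an MTH-WT sample was left out, the rows were chosen again on the 2 that remained. With both groups complete, the replicate block gave -0.939 by arithmetic. The held-out difference kept its direction in all alternatives run, from -0.971 without the comparison of number 2 to -0.173 without that of number 3. These 2 values average the comparisons that remain, and all 3 MTH-WT samples still took part in choosing rows. No version of the test could reach the threshold, as the smallest p possible was 0.1, or 0.25 with the block, and 0.333 with 2 samples against 2. On rows chosen on MTH-D, MTH-WT minus MTH-D was -0.178 points, -0.498 at 90%, and reversed to 0.0573 at 70%. The cause was not tested. The share of members with every MTH-D sample above the threshold fell from 84.4% to 77.8% at 90%. The share with a methylated position within 100 bases went from 85.03% to 62.4% within 50 bases and 98.2% within 500, to 76.7% for neighbours averaging 20% or more, and to 79.4% for neighbours that are not members. The median distance between members, 245 bases, was 171 at 70%, 541 at 90% and 368 without values of exactly 0 or 1, where fewer or more positions are spaced. Motif alternatives were not run, since they need a genome of the build. With depth unknown, the error of any single position's level is unknown too.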
